A study of Homo sapiens with 9 samples.

Results

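At 256 loci of human HEK293 cells, the isoform that held the largest part of the RNA was replaced by another isoform when a factor of nonsense-mediated decay was targeted together with XRN1. These loci were chosen by a rule on the measured values. A locus needed a summed isoform signal of at least 1000 in each of 4 RNA-seq libraries. It also needed 1 isoform, here called the losing isoform, that was the largest in both the control library and the library labelled XRN1. Another isoform, the gaining isoform, had to be the largest in both libraries labelled SMG6/XRN1 and UPF1/XRN1. The deposited table held 48558 loci, 8702 passed the signal minimum, and the 256 chosen loci were 2.94% of these. Of the 8424 loci that also had at least 2 assembled isoforms they were 3.04%. At 6983 loci 1 isoform was the largest in all 4 libraries, and at 1463 the order was another one. At TRAF5 the same pattern appeared, but its 2 isoforms were tied in the control at 780.3 each and in XRN1 at 1030 each, so it was left out.

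The RNA came from the Flp-In T-Rex form of HEK293, an established line of human embryonic kidney cells. The subline, b-39, carries a beta-globin PTC39 reporter at the Flp-In locus. All 4 libraries share this reporter, a beta-globin gene with a premature stop codon. Cytoplasm was released with digitonin and poly(A)+ RNA was selected from it. The control cells had received siRNA against EGFP, and the others were labelled as depleted of XRN1, of SMG6 and XRN1, or of UPF1 and XRN1. With 1 RNA-seq library per condition, no value has a replicate check and no test between conditions was possible. The other 5 of the 9 samples, 4 libraries of RNA 5' ends and 1 CAGE library, were not analysed here.

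The mRNAs of the targeted genes do not check the labels. XRN1 was at 7.80, 7.31, 10.1 and 6.50 FPKM in control, XRN1, SMG6/XRN1 and UPF1/XRN1, so it was not clearly lower where its depletion is labelled. SMG6 was at 4.77, 5.55, 7.66 and 5.97 FPKM and UPF1 at 6.71, 11.6, 11.4 and 8.59, and neither was below the control where it was targeted, although UPF1 was lower there than in XRN1. In spike-in signal summed per locus, XRN1 was at 6864, 6135, 7724 and 6897 and SMG6 at 2201, 2908, 2857 and 4148. UPF1 was at 4236, 7314, 7822 and 4650 in that signal, again lower with UPF1/XRN1 than in XRN1 but not below the control. Directions below therefore refer to the libraries as labelled. HBB, the beta-globin gene from which the reporter derives, was at 139, 257, 355 and 747 FPKM. Of 10 markers of the HEK293 line 7 had at least 100 reads in every library and PAX8 had under 10, while 10 of 18 markers of other cell types had under 10 and 2, CD68 and EPCAM, had at least 100. The 4 libraries held about 31476526, 32970741, 34649851 and 35983475 estimated reads. At 11 of the 256 loci the losing and gaining isoforms carry different gene symbols, among them DNAJC25 and GNG10 and also PPP2CA and SKP1, and at 59 they share 1 reference transcript.

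Nonsense-mediated decay (NMD) removes mRNAs on which the ribosome stops well before the end of the normal reading frame. In human cells a stop codon is read as premature mainly when an exon junction lies downstream of it. UPF1 is the helicase at the centre of the pathway, SMG6 is the endonuclease that cuts the mRNA near the stop codon, and XRN1 is the cytoplasmic exonuclease that degrades the downstream fragment from its 5' end. Many genes of splicing factors carry a poison exon, a conserved cassette exon with an in-frame stop codon whose inclusion turns the transcript into a target of this pathway. Such a transcript is made in normal cells, but little of it accumulates.

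The sequences of 8 gaining isoforms are given first. They were picked from the 26 gaining isoforms typed in GENCODE as NMD targets whose exons could be compared with the losing transcript. Each carries an annotated premature stop codon. Each line gives the coding bases of the exon that holds the stop, from the exon's first base to the stop codon, which stands in capitals. At 7 of the 8 loci shown the whole exon is absent from the losing transcript. Such added exons are over-represented here, because among the 26 the stop lies in an extra exon at 10 and in a shared or changed exon at 16. At FECH the exon is not an added cassette exon but a shared or changed one. Transcript models, coordinates and sequences are from GENCODE v29 on GRCh38, matched by transcript identifier, while the deposited values were made on hg19. All 8 genes lie on the minus strand and the sequences read 5' to 3'.
HNRNPL: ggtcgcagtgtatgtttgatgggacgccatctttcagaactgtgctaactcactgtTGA
XPA: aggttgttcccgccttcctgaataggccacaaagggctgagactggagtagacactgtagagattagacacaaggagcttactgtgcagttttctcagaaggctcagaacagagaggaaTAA
TRA2B: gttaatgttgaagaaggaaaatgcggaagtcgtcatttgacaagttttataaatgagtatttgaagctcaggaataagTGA
FECH: aaaacatttctcaggttgcTAA
ALG2: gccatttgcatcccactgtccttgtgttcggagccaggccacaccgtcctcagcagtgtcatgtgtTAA
MAGOHB: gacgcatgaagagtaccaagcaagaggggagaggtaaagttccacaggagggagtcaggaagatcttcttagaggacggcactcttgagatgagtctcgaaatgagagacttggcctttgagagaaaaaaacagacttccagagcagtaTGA
CCNL1: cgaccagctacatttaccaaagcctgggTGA
BCLAF1: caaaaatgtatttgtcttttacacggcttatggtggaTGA

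The HNRNPL stretch lies at chr19:38841624-38841682 in an exon of 70 bases, and its stop codon is 842 bases before the last exon junction of the transcript. The XPA stretch is at chr9:97682309-97682430 in an exon of 231 bases, with 109 bases to the last junction. TRA2B has its stretch at chr3:185931772-185931852 in an exon of 276 bases, and 1015 bases remain to the last junction. These exons lie between 2 exons that the losing transcript joins directly. The FECH stretch is at chr18:57571582-57571603 in an exon of 212 bases, 864 bases before the last junction. The ALG2 stretch is at chr9:99221069-99221137 in an exon of 159 bases, and its stop is only 90 bases from the last junction. For MAGOHB the stretch is at chr12:10612827-10612978 in an exon of 339 bases, with 440 bases to the last junction. The CCNL1 stretch spans chr3:157157053-157157083 in an exon of 73 bases, 1 of 2 exons that the losing transcript lacks. The BCLAF1 stretch spans chr6:136269264-136269303 in an exon of 163 bases, and the same transcript skips an exon of 147 bases that the losing one holds. The CCNL1 and BCLAF1 stops are 988 and 514 bases from the last junction.

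Over the 256 loci the gaining isoform held a median of 26.5% of the locus signal in the control, 30.2% in XRN1, 42.6% with SMG6/XRN1 and 44.0% with UPF1/XRN1. Its quartiles were 14.2% and 35.2% in the control, 21.7% and 36.6% in XRN1, 35.6% and 51.1% with SMG6/XRN1, and 36.0% and 51.6% with UPF1/XRN1. The losing isoform had medians of 49.4%, 45.1%, 30.1% and 26.9% in the same order. The rule fixes the direction of these values, so they describe the size of the exchange and test nothing. At most loci the exchange was partial. The gaining isoform held more than 50% of the signal in both co-depletion libraries at 57 loci, and the losing isoform held more than 50% in both other libraries at 79. The gaining share was higher in XRN1 than in the control at 166 of 256 loci, with a median difference of 3.15 percentage points. Between the co-depletions it was higher in UPF1/XRN1 at 141 of 256, with a median difference of 0.788 points.

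**Figure D1:**
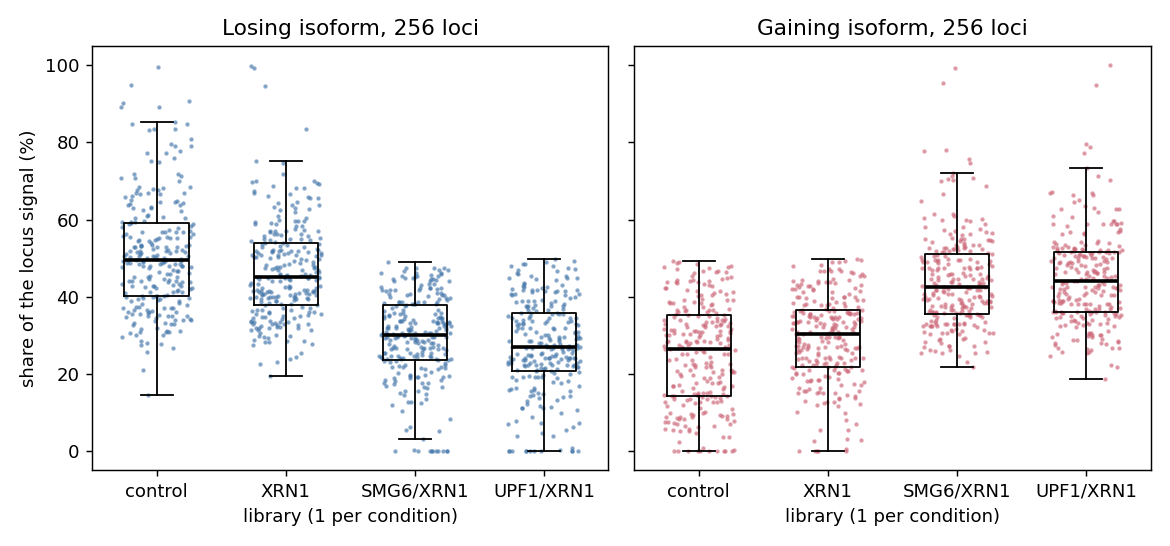
Share of the locus signal (%) held by the losing isoform (left) and the gaining isoform (right) at the 256 loci in each of the 4 libraries. Points are loci, boxes span the quartiles with the median as a thick line, and whiskers reach the farthest locus within 1.5 box lengths. The gaining medians are 26.5%, 30.2%, 42.6% and 44.0%, and the losing medians 49.4%, 45.1%, 30.1% and 26.9%, from left to right.

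The switch size was defined as the smaller gaining share of both co-depletions minus the larger gaining share of control and XRN1. It ran from -8.90 to 52.6 percentage points with a median of 8.12. It was at least 20 points at 43 loci, at least 10 points at 108, and at or under 0 at 35. A size under 0 means that the lead changed although the gaining share itself did not exceed its earlier level in every library. The loci were covered by 249 to 69098 estimated reads in a library, and the median was 1012.5 in the control, 1215 in XRN1, 1492.5 with SMG6/XRN1 and 1753.5 with UPF1/XRN1. The exact 95% binomial interval of a gaining share had a half-width of at most 6.34 points. This interval covers counting error only and not the assignment of reads among overlapping isoforms. At 113 loci the lead of one isoform over the other was beyond counting error in all 4 libraries, and at 143 it was not in at least 1. Among the 256, SKIDA1 was the nearest to the signal minimum at 1001 in UPF1/XRN1, followed by ORAI2 at 1008 in XRN1. Just outside it were ZHX3 at 978.0 in UPF1/XRN1 and VAV1 at 932.7 in the control.

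Among the 16 loci with the largest switch sizes, HNRNPL and SNHG16 were the most deeply covered after SAT1. HNRNPL encodes a heterogeneous nuclear ribonucleoprotein that regulates splicing. The isoform with the 70-base exon shown above held 7.50% of its signal in the control, 14.9% in XRN1, 52.0% with SMG6/XRN1 and 66.9% with UPF1/XRN1. In signal units the gaining isoform was at 5429, 13785, 61447 and 83950, and the losing isoform at 29829, 30750, 29082 and 19596. The losing isoform was at similar levels in 3 libraries and was lowest in UPF1/XRN1, while the gaining one was higher in each library of this order. The gaining isoform was 2.16 log2 units higher with SMG6/XRN1 and 2.61 higher with UPF1/XRN1 than in XRN1.

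XPA, a DNA-binding protein of nucleotide excision repair, showed a similar division with its 231-base exon. Its gaining isoform held 6.57%, 22.8%, 59.9% and 56.4% of the signal in control, XRN1, SMG6/XRN1 and UPF1/XRN1. Its level was 191.5, 776.9, 3818 and 3834, while that of the losing isoform was 2626, 2299, 2196 and 2166. The losing XPA isoform was nearly level over the 4 libraries, and the 2 co-depletions gave almost the same level of the gaining one.

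SAT1 encodes the enzyme that acetylates spermidine and spermine, and its transcript with an added exon is a long known target of NMD. The gaining transcript has an internal exon that the losing one lacks and is typed in GENCODE as a processed transcript, without a coding region. It held 6.18% of the signal in the control, 24.1% in XRN1, 56.2% with SMG6/XRN1 and 63.4% with UPF1/XRN1. Its level was 7082, 45014, 164569 and 163023. The rise from control to XRN1, 2.67 log2 units, was larger than the further 1.87 and 1.86 in the co-depletions over XRN1. The losing SAT1 isoform was at 102336, 119211, 91710 and 62018, so it was lowest with UPF1/XRN1.

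SNHG16, a non-coding host of small nucleolar RNAs, exchanged its isoforms at a similar total. The locus signal was 22678 in the control, 24411 in XRN1, 22620 with SMG6/XRN1 and 23562 with UPF1/XRN1. The gaining isoform held 8.38%, 11.9%, 51.8% and 62.8% of it, and the losing isoform 77.7%, 68.8%, 31.6% and 22.6%. The losing isoform fell by 1.23 and 1.66 log2 units in the co-depletions against XRN1 and the gaining isoform rose by 2.01 and 2.35. SNHG16 thereby differs in form from HNRNPL and XPA, where the locus grew with the gaining isoform.

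At several of the largest switches the gaining isoform was close to absent before. For BACH2, a transcriptional repressor of B cell development, it held 0.0101% and 0.0113% in control and XRN1, less than 1 read in each, and 71.9% and 52.7% in the co-depletions. The losing BACH2 isoform had 99.5% and 99.9% before and 28.1% and 47.0% after. Both transcripts have the same coding region, and the gaining one skips an internal exon outside it. BACH2 rests on only 277 to 380 estimated reads in a library. For CCP110, a protein of the centriole, the gaining isoform held 0.00555% in the control, was listed at 0 in XRN1, and held 35.7% and 35.3% in the co-depletions, again with the same coding region and another first exon. C2orf44 had gaining shares of 0.00545%, 0.439%, 53.8% and 52.4%. Over all 256 loci the gaining isoform was below 1 read in control or XRN1 at 13, and the losing isoform was below 1 read in at least 1 co-depletion at 18. Such values can be failed estimates, so no size of fold change is given for them, and the counts past 2-fold below are also given without them.

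Other loci of this group did not show equal shares in control and XRN1. ORAI2, a subunit of store-operated calcium channels, had gaining shares of 0.0454%, 44.1%, 95.3% and 94.9%. In XRN1 its losing isoform held 45.9% on only 249 estimated reads, so the lead in that library was narrow. SETD1A, a histone methyltransferase, had 34.0% in the control, 0.00422% in XRN1, 75.6% with SMG6/XRN1 and 77.2% with UPF1/XRN1. Both of its isoforms carry the same reference transcript name, as do those of C2orf44, PTPN14, KIAA1257 and SKIDA1. As classed by the authors, the gaining isoform of SETD1A and C2orf44 matches all introns of that reference. At PTPN14 and SKIDA1 the losing isoform does. The other isoform of each of these pairs has another combination of junctions, and at KIAA1257 both isoforms do. PTPN14, a protein tyrosine phosphatase, had 35.2%, 26.8%, 77.9% and 79.6%. KIAA1257 had 0.00664%, 13.8%, 46.0% and 53.8%, and SKIDA1 had 40.3%, 31.8%, 71.2% and 100%. In SKIDA1 the losing isoform was listed at 0 in UPF1/XRN1, where the whole locus was at its lowest. In the last 4 loci of the 16 the gaining share was between 4.69% and 17.9% in both control and XRN1. SOCS7, of the suppressor of cytokine signalling family, had 5.19%, 5.32%, 56.8% and 62.7%. TBCK had 10.8%, 17.9%, 48.7% and 52.1%, HECTD2, a ubiquitin ligase, had 12.6%, 11.7%, 42.9% and 54.3%, and ACER3, an alkaline ceramidase, had 4.69%, 5.39%, 37.6% and 35.3%.

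**Figure D2:**
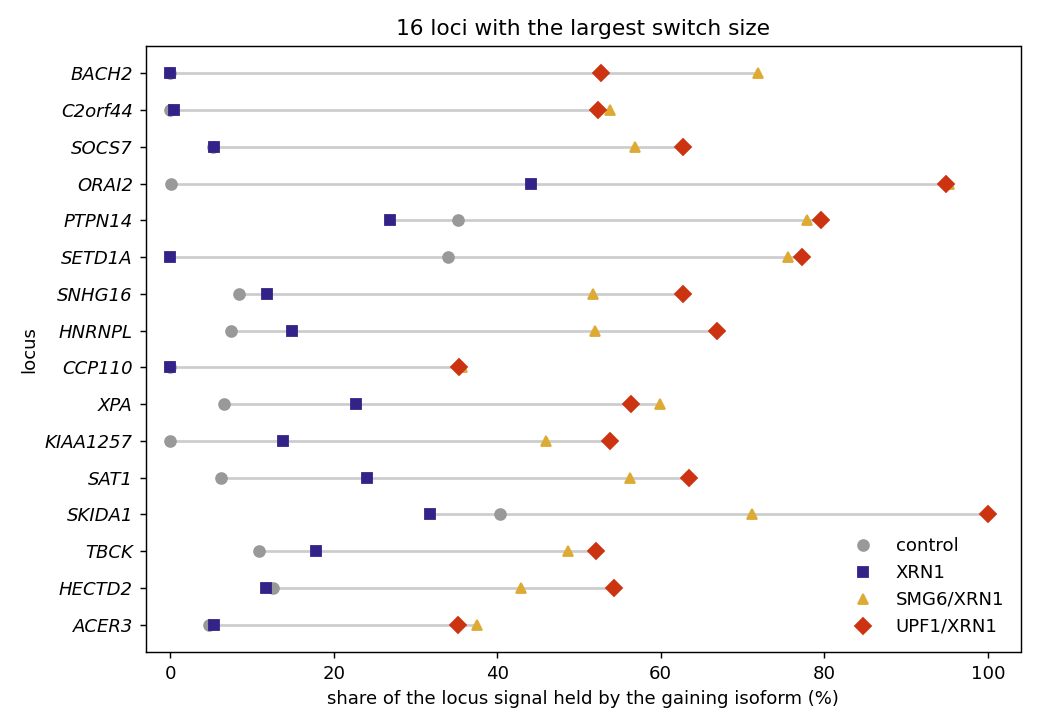
Share of the locus signal (%, x axis) held by the gaining isoform at the 16 loci with the largest switch size (y axis), with 1 point per library and a line over their range. In HNRNPL the points run from 7.50% to 66.9% in the order control, XRN1, SMG6/XRN1, UPF1/XRN1, while in SETD1A and SKIDA1 the XRN1 library lies below the control.

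Counted over all 256 loci, the switch went more often with a higher gaining isoform than with a lower losing one. The gaining isoform was at least 2-fold higher than in XRN1 at 103 loci (40.2%) with SMG6/XRN1 and at 110 (43.0%) with UPF1/XRN1. At 92 it was so with both. Of all 34542 isoforms with a mean signal of at least 100, 20.2% and 22.2% were so in these comparisons. The losing isoform was at least 2-fold lower at 31 (12.1%) and 55 (21.5%) loci, beside 6.17% and 8.69% of all such isoforms. In both co-depletions it was so at 21. Isoforms at large were thus also more often higher than lower, so this asymmetry is not particular to the switching loci. At 15 loci both happened, at 77 only the gaining isoform passed in both co-depletions, at 6 only the losing one, and at 158 neither. At 21 loci the gaining isoform was below 1 read in XRN1 or the losing one was below 1 read in a co-depletion. Without these 21 the gaining isoform was 2-fold higher at 86 loci with SMG6/XRN1, at 94 with UPF1/XRN1 and at 77 with both. The losing isoform was then 2-fold lower at 15 and 40 loci and at 10 in both, and both changes were found at 5. The losing isoform counts for SMG6/XRN1 and for both thus rest in large part on these 21 loci. The rule used these contrasts, and both share the XRN1 library, so the counts are descriptions.

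The 15 loci with both changes included BACH2, SOCS7, ORAI2, SETD1A and SNHG16 of the 16 largest, and also CASP8, an apoptotic protease, and IRAK4, a kinase of Toll-like receptor signalling. Of these, BACH2, ORAI2, SETD1A and CASP8 are among the 21 loci with a value under 1 read, as is SKIDA1 of the next group. The 6 with only a lower losing isoform were PTPN14, SKIDA1, RAB11FIP4, FNBP1L, RP11-798G7.6 and ABL2. The median log2 change of the gaining isoform was 0.89 with SMG6/XRN1 and 0.81 with UPF1/XRN1 against XRN1, beside 0.26 and 0.18 over all isoforms. For the losing isoform it was -0.25 and -0.47. In XRN1 against the control the gaining isoform had a median of 0.39 and the losing one 0.10, beside 0.18 over all isoforms. There 74 gaining isoforms (28.9%) were at least 2-fold higher, beside 19.3% of all isoforms, and 4 (1.56%) were 2-fold lower, beside 8.67%.

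**Figure D3:**
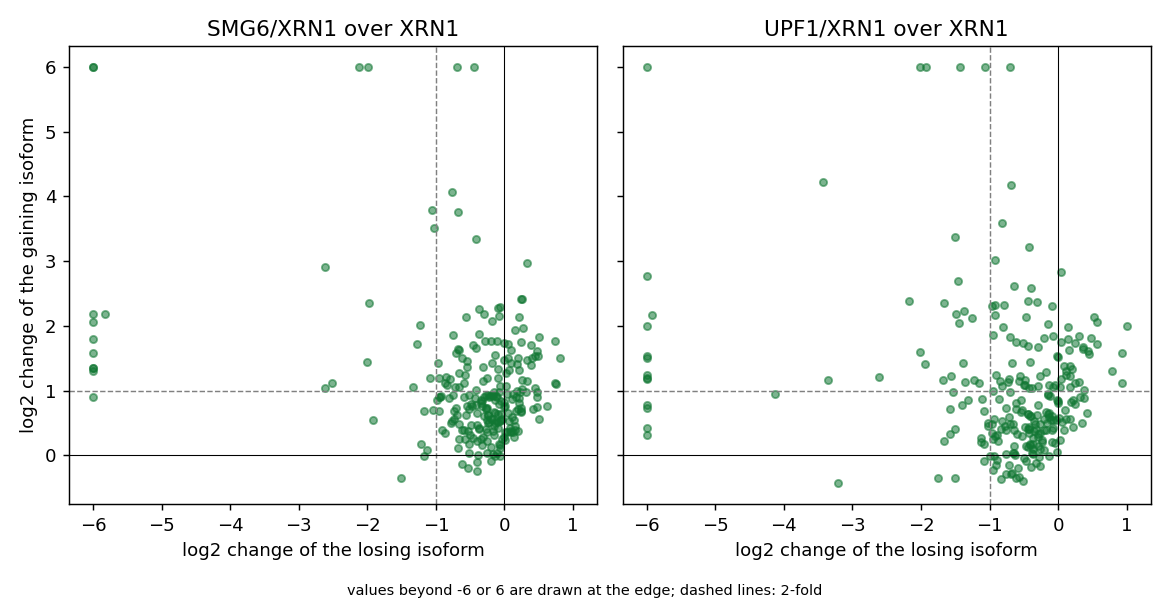
Log2 change against XRN1 of the gaining isoform (y axis) and the losing isoform (x axis) at the 256 loci in SMG6/XRN1 (left) and UPF1/XRN1 (right), with dashed lines at 2-fold. Most points lie above 0 on the y axis and between -1 and 1 on the x axis, and 103 and 110 gaining isoforms are past 2-fold. Values beyond -6 or 6, which come from isoforms at or near 0, are drawn at the edge.

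The locus as a whole changed less than its isoforms. Its signal was at least 2-fold higher than in XRN1 at 10 of 256 loci in SMG6/XRN1, beside 0.873% of all 8702 loci, and at 14 in UPF1/XRN1, beside 1.82%. In XRN1 against the control it was 2-fold higher at 8 of 256, which is 3.12%, beside 3.36% of all loci. None of the 256 was 2-fold lower in any of the 3 comparisons, beside 0.0575% of all loci for SMG6/XRN1 and 0.379% for UPF1/XRN1 over XRN1, and 0.218% for XRN1 over control. The median log2 change of the locus was 0.22 for XRN1 over control, 0.31 for SMG6/XRN1 and 0.21 for UPF1/XRN1 over XRN1, beside 0.15, 0.20 and 0.07 over all loci. When each library was divided by its own total in place of the spike-in scaling, the first was 0.0856 and the second 0.17. In the authors' gene table, which holds 251 of the 256 loci, the median log2 changes in FPKM were 0.20, 0.21 and 0.16.

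The locus with the largest rise over XRN1 was TBC1D3, by 1.29 log2 units with SMG6/XRN1 and 1.55 with UPF1/XRN1. C17orf76-AS1, a non-coding RNA, rose by 1.21 in SMG6/XRN1, and AC004381.6 by 1.20 and 1.33 in SMG6/XRN1 and UPF1/XRN1. PDXDC2P rose by 1.47 in UPF1/XRN1. TBC1D3 and PDXDC2P have near-identical copies in the genome, and how their reads were divided is uncertain. The lowest loci in SMG6/XRN1 were NQO2 at -0.34, EPHA7 at -0.33 and GEMIN8 at -0.24. In UPF1/XRN1 they were SKIDA1 at -0.92, SEPT6 at -0.80 and EPHA7 at -0.73. None of these 5 loci passed 2-fold.

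The annotation of the isoforms was not used by the rule, although the rule chose which isoforms are called gaining and losing. A complete match of all introns to a reference transcript was given for 194 gaining and 194 losing isoforms, and for both at 152 loci. GENCODE v29 gives a type for 178 of these gaining isoforms and 184 of the losing ones. Of the gaining isoforms 123 (69.1%) were protein coding, 31 (17.4%) were typed as targets of NMD, 15 (8.43%) as processed transcripts and 6 (3.37%) as retained introns. Of the losing isoforms 163 (88.6%) were protein coding, 2 (1.09%) NMD, 14 (7.61%) processed transcripts and 3 (1.63%) retained introns. At the other loci with at least 2 isoforms the largest isoform was of the NMD type in 2.32% of cases in the control, 2.69% in XRN1, 2.84% with SMG6/XRN1 and 3.07% with UPF1/XRN1. Processed transcripts were 2.05% there in the control and 2.04% with SMG6/XRN1, so they were more frequent among both isoforms of the switching loci. Gaining isoforms are by rule not the largest in control and XRN1, so the largest isoforms of other loci are an unlike set. How often isoforms of lower rank carry each type was not tested.

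**Figure D4:**
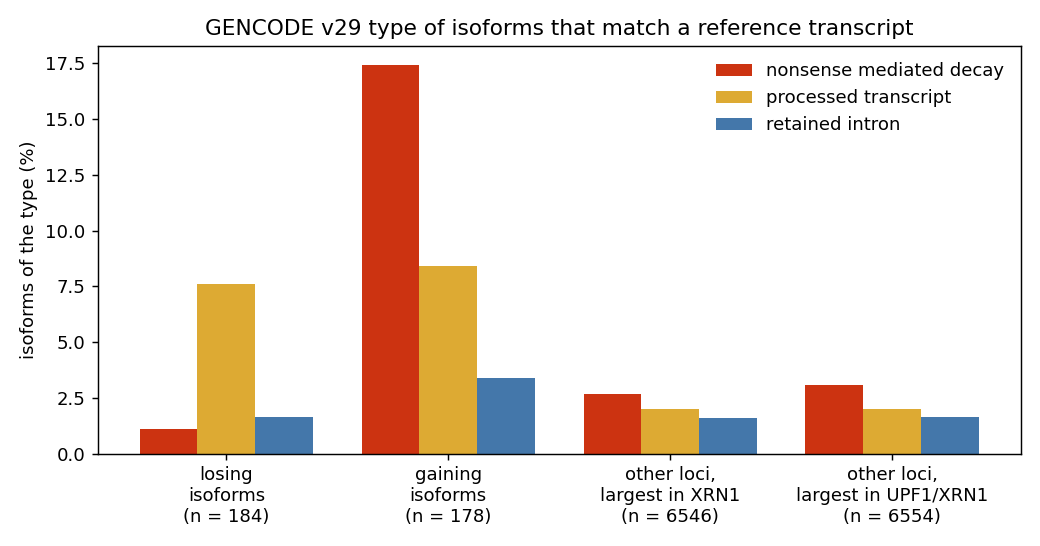
Share (%, y axis) of isoforms of 3 non-coding or decay types in GENCODE v29, for losing and gaining isoforms of the switching loci and for the largest isoform of the other loci in the libraries labelled XRN1 and UPF1/XRN1 (x axis, with the number of isoforms). NMD types make up 1.09% of losing and 17.4% of gaining isoforms, and 2.69% and 3.07% at the other loci.

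Where both isoforms had a type, at 134 loci, the most frequent exchange was from one protein coding transcript to another, at 78. A protein coding transcript gave way to an NMD type at 26, to a processed transcript at 8 and to a retained intron at 4. The opposite step from an NMD type to a protein coding transcript occurred at 1, TCTN1. Exchanges between protein coding types were thus the largest group of these pairs.

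The 31 loci with an NMD type as gaining isoform are set beside the 123 with a protein coding one. The gaining NMD type held a median of 14.1% in the control, 24.0% in XRN1, 37.3% with SMG6/XRN1 and 41.5% with UPF1/XRN1. For the protein coding group the medians were 32.2%, 33.3%, 44.5% and 45.4%. The median log2 change of the gaining NMD type was 1.18 for XRN1 over control, 1.47 for SMG6/XRN1 and 1.61 for UPF1/XRN1 over XRN1, and 22 of the 31 were at least 2-fold higher in both co-depletions. The protein coding group had medians of 0.24, 0.66 and 0.54, with 29 of 123 past 2-fold in both. The losing isoform was 2-fold lower in both co-depletions at 1 of the 31 loci, DMTF1, where it was listed at 0 in both, and at 8 of the 123. The gaining share was higher in XRN1 than in the control at 27 of the 31 and at 68 of the 123. These levels come from the libraries that chose the loci and are given without a test.

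The position of the annotated stop codon gave a similar division to the types. It was more than 50 bases before the last exon junction in 32 of 151 gaining isoforms with an annotated stop (21.2%) and in 2 of 163 losing ones (1.23%). For the largest isoform of the other loci the share was 2.85% in the control, 3.21% in XRN1, 3.37% with SMG6/XRN1 and 3.63% with UPF1/XRN1. The limit given for the types holds here too. Of 96 pairs with 2 annotated stops, only the gaining isoform had such a stop at 26, only the losing one at 1, both at 1 and neither at 68. Type and stop position are not independent, because the annotation assigns the type from the position of the stop. Among 26 gaining isoforms of the NMD type with a compared partner, the distance to the last junction was 56 bases at the least, 538 at the median and 2210 at the most.

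**Figure D5:**
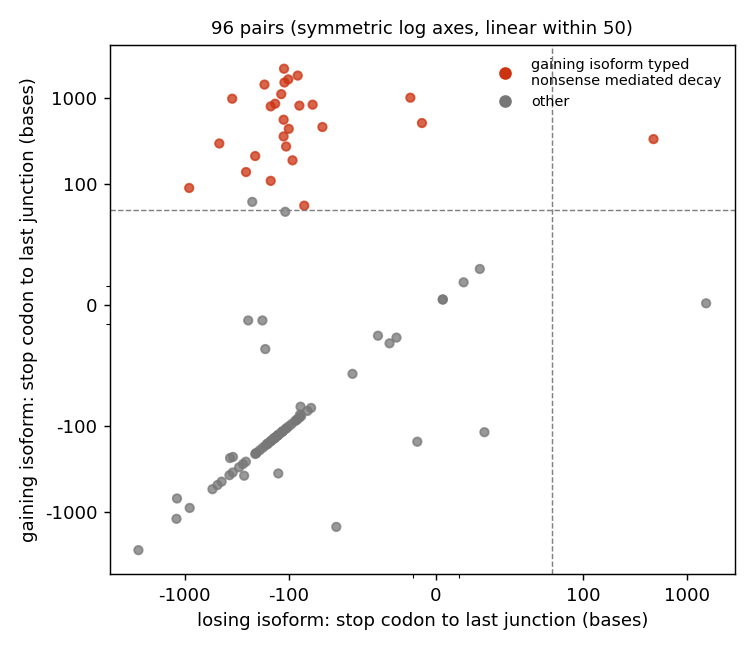
Distance in bases from the stop codon to the last exon junction in the losing isoform (x axis) and the gaining isoform (y axis) of 96 pairs, on symmetric log axes that are linear within 50 bases. Positive values mean a stop before the last junction and dashed lines mark 50 bases. Pairs above the horizontal line and left of the vertical line, 26 in number, have such a stop only in the gaining isoform.

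At 127 loci the exons of both reference transcripts could be compared. The gaining transcript had an internal exon that the losing one lacked at 34, and lacked one that the losing one had at 21. The first exon was another one at 37 and the last at 17. An intron was kept in the gaining transcript at 2 and in the losing one at 10, so retained introns were seldom what the gaining transcript added. In the 26 pairs with a gaining NMD type the start codon was the same at 25. There an exon was added at 12 and skipped at 4, while another first exon was found at 1 and another last exon at 2. In the 74 pairs with 2 protein coding types another first exon was more frequent, at 26, and an exon was added at 16 and skipped at 11. The coding region was the same at 15 of the 74. The chosen loci had a median of 10.5 assembled isoforms, with 2 to 48, beside a median of 9 at the other loci with at least 2.

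With 3 lists pooled, splicing regulators were by number the largest functional group among the listed genes. No other lists were pooled, and the number of isoforms per gene was not taken into account. Of 90 genes over the signal minimum in 3 lists of splicing proteins, 9 were switching loci, which is 10%, beside 2.94% of all loci. The list of SR proteins, which bind exonic enhancers, and their TRA2 relatives gave 3 of 14, TRA2B, TRA2A and SRSF2. The hnRNP and PTB proteins gave 1 of 25, HNRNPL, which is 4% and near the value of all loci. The other splicing factors and kinases gave 5 of 51, CLK2, CIRBP, CLK1, SON and TIA1.

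TRA2B and TRA2A encode splicing activators related to the SR proteins. The TRA2B isoform with the 276-base exon held 12.4%, 28.1%, 52.4% and 64.6% in control, XRN1, SMG6/XRN1 and UPF1/XRN1, at levels of 4261, 13368, 35858 and 68872. The losing isoform was at 27740, 31325, 27684 and 25215. The 4 levels of the losing TRA2B isoform were close to each other, while the gaining one was lowest in the control and highest with UPF1/XRN1. TRA2A had gaining shares of 5.81%, 15.7%, 35.6% and 51.4% and losing shares of 68.3%, 52.8%, 30.7% and 9.74%. The gaining TRA2A isoform is a new combination of junctions, so it has no annotated type.

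For SRSF2 the gaining shares were 8.86%, 21.7%, 43.2% and 41.6% and the losing shares 62.3%, 56.8%, 29.8% and 29.9%. Both SRSF2 transcripts are typed as retained introns, and the losing one keeps an intron that is spliced out of the gaining one. CLK1 and CLK2 are kinases that phosphorylate SR proteins. The gaining CLK1 isoform, of the NMD type, held 13.5%, 22.8%, 38.4% and 42.1%, and that of CLK2, a processed transcript, held 11.2%, 10.02%, 33.5% and 49.1%. CIRBP, a cold-inducible RNA-binding protein, had 14.6%, 20.3%, 38.2% and 43.1%. The exchanges at SON and TIA1 were small, with switch sizes of 6.51 and 1.42 points. In both the gaining share was lower in XRN1 than in the control, 28.2% after 36.8% for SON and 12.5% after 31.6% for TIA1.

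The machinery of decay itself was represented by single genes, so each list percentage given here rests on 1 gene. UPF3A, a partner of UPF2 in NMD, was 1 of 12 NMD factors (8.33%, beside 2.94% of all loci). Its gaining shares were 11.7%, 26.9%, 32.4% and 38.7%. Its losing isoform went from 42.9% and 28.4% to 20.5% and 7.23%. MAGOHB, a core protein of the exon junction complex, was 1 of 8 genes of that complex (12.5%). Its gaining NMD type held 14.9%, 25.5%, 35.7% and 38.1%, at levels of 1080, 2450, 6547 and 7013, while the losing isoform was at 5136, 4318, 4606 and 4306. The pattern of MAGOHB is that of XPA and TRA2B, a nearly level losing isoform beside a higher isoform with an added exon. EXOSC7, a subunit of the RNA exosome, was 1 of 30 mRNA decay factors (3.33%). Its gaining isoform, a processed transcript, had shares of 22.5%, 36.4%, 48.6% and 58.8%.

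FECH, CCNL1, ALG2 and BCLAF1, whose stop codons are shown above, differed in size of exchange. FECH encodes ferrochelatase, which inserts iron in the last step of haem synthesis. Its gaining shares were 0.893%, 2.70%, 32.3% and 52.2%, and the losing isoform was at 64.0%, 56.3%, 31.0% and 5.40%. The FECH locus itself had 9065, 7739, 8783 and 7510 units of signal, so the exchange occurred at a similar total. ALG2, a mannosyltransferase of N-glycan assembly, has only 2 isoforms, and the gaining one held 29.3%, 39.7%, 60.2% and 51.6%. CCNL1, a cyclin of the L type that works in transcription and splicing, had 32.5%, 18.4%, 37.3% and 37.1%. BCLAF1 had 30.5%, 19.9%, 27.1% and 30.0%, so its gaining share was no higher in the co-depletions than in the control and the switch came with a lower losing share, 48.6%, 41.8%, 26.3% and 21.3%.

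Each further list gave few loci, so the percentages below rest on 1 to 3 genes and are set beside 2.94% of all loci. Of 31 genes known from earlier work as NMD targets 3 were switching loci, SAT1, TRA2B and SRSF2, which is 9.68%. That list was drawn up from such knowledge and is not independent evidence, and TRA2B and SRSF2 were already counted among the splicing proteins. SNHG16 was 1 of 12 listed non-coding snoRNA hosts (8.33%) and RCC1 1 of 30 listed protein-coding ones (3.33%). The host lists need not be complete, and C17orf76-AS1, named above, was not on them. There was also 1 of 72 nuclear respiratory chain genes (SDHB, 1.39%) and 1 of 37 translation factors (EIF3B, 2.70%). The proteasome subunits gave 1 of 30 (PSMC4, 3.33%). The list of chaperones gave 1 of 29 (HSPB1, 3.45%). Polyamine and selenoprotein genes gave 1 of 17 (SAT1, 5.88%) and genes of the ATF4 pathway 1 of 22 (ASNS, 4.55%).

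Most of these housekeeping genes had a gaining isoform that was already abundant in control and XRN1. SDHB, a subunit of succinate dehydrogenase, had gaining shares of 46.4%, 49.5%, 52.9% and 58.9%, and PSMC4 had 47.5%, 49.0%, 53.5% and 51.5%. HSPB1, a small heat shock protein, had 38.3%, 32.1%, 39.8% and 49.0%. EIF3B had 31.5%, 34.8%, 42.2% and 42.6%, and RCC1 had 37.8%, 31.9%, 40.7% and 38.2%. At SDHB, PSMC4, HSPB1, EIF3B and RCC1 the gaining isoform thus held at least 31.5% of the signal in control and XRN1. Their losing shares are not given here. ASNS, which encodes asparagine synthetase, had gaining shares of 39.1%, 42.1%, 37.2% and 36.0%, lower in both co-depletions than in XRN1. Its losing isoform had 44.6%, 45.0%, 31.4% and 29.2%.

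The 4 smallest switch sizes were of the same kind. RP11-152P17.2 had a size of -8.90 points, RFC5, a subunit of the clamp loader of DNA replication, had -8.35, NQO2 had -7.69 and RAB11FIP5 had -6.60. For RFC5 the gaining shares were 32.9%, 26.2%, 24.7% and 24.6%, and the losing shares 35.6%, 38.9%, 19.4% and 15.8%. The gaining isoform became the largest there without a higher share, as the losing share was lower in both co-depletions.

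Summed over all isoforms of a locus, the chosen loci held more of the NMD type than the other loci. These sums include the NMD-typed gaining isoforms that the rule chose, so they are not separate from the counts above. The share without those isoforms was not computed. The mean share of a locus in isoforms of that type was 3.69%, 5.05%, 7.67% and 8.43% over the 256 loci in control, XRN1, SMG6/XRN1 and UPF1/XRN1. Over the other 8168 loci with at least 2 isoforms it was 2.79%, 3.10%, 3.56% and 3.74%. Such isoforms were present at 102 of the 256 and at 2675 of the 8168. Retained introns had nearly level means, 2.52%, 2.63%, 2.57% and 2.52% at the 256 loci. The authors' own mark of NMD isoforms was set for 140 of the 256 gaining and 4 of the 256 losing isoforms, but it was made from the same values. How often isoforms at large carry this mark was not computed, so these counts have no background.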

How the data were processed

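Cytoplasmic poly(A)+ RNA was sequenced from ScriptSeq v2 libraries, 1 per condition, per the labels' protocols. The submitters' processing notes name CASAVA 1.8.2, Bowtie 0.12.7, TopHat2 2.0.6, Cufflinks 2.0.2 and hg19, with no role or order. The isoform values are a signal deposited by the authors as spike-in normalised. The sources used here do not say how the factor was computed or whether reads were assigned by strand, and values of overlapping genes or of near-identical copies are therefore uncertain. Gene values are FPKM, deposited by the authors per assembled locus. Class codes and TRUE or FALSE marks in the other deposited columns are the authors' own.

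Isoform signals were summed per locus, and shares are percent of that sum. Estimated reads are signal divided by what 1 read is worth, which is 3.85, 4.05, 4.25 and 3.72 signal units in the libraries, control first and UPF1/XRN1 last. Between 84.6% and 86.6% of the loci under about 20 reads were whole within 0.01. Shares have exact Clopper-Pearson intervals at 95%. Changes are log2((a + 1)/(b + 1)), which understates changes of low isoforms, and were called at 2-fold. No p-value was computed because each group had 1 library. Background isoforms had a mean signal of at least 100.

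The members, the 18 lists and the tests were chosen with earlier results of these data known. Named loci were the 16 largest and 4 smallest switch sizes, all list members, the 3 largest rises and lowest values of locus signal in each co-depletion, and the loci at the signal minimum. The result of 1 list that this rule picks is not reported here. FECH, ALG2, CCNL1, BCLAF1, METTL17, PARL, TCTN1, DMTF1, CASP8, IRAK4, the other loci of the group with only a lower losing isoform, and the pairs of joined symbols were named after their values were seen. GENCODE v29 held 90.8% of the isoforms' transcript identifiers. Its version of the transcript equalled that of the files for 24 gaining and 21 losing isoforms of the 127 compared pairs, so models may differ from those the authors used. Alternatives covered the signal minimum, the lead, the match class, the scaling and the pseudocount. Python 3.11.15, pandas 2.3.3, numpy 2.4.6, scipy 1.17.1 and matplotlib 3.10.9 were used. The procedure was tested on simulated data in which planted switches had a 2-fold lead. Close leads and the assignment of reads among overlapping isoforms were not tested by it.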

Additional observations from a re-analysis of the deposited data

How the results depend on the processing

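The count of switching loci depended most on how large a lead was required. With a lead of at least 1.5 times in every library 17 of the 256 loci were left, among them HNRNPL, SNHG16, XPA, SAT1, METTL17 and PARL. Their median gaining shares were 18.8%, 24.1%, 53.3% and 58.8% in control, XRN1, SMG6/XRN1 and UPF1/XRN1. Their median log2 changes over XRN1 were 1.87 and 1.86 for the gaining isoform and -0.70 and -0.94 for the losing one, in SMG6/XRN1 and UPF1/XRN1, and 33.3% of 12 typed gaining isoforms were of the NMD type. With a lead beyond counting error, an alternative chosen after seeing the data, 113 loci were left, of which 23.8% of 80 typed gaining isoforms were of that type. The count was 315 at a minimum of 500, 191 at 2000, and 257 with the TRAF5 tie broken by file order. With only complete matches to a reference there were 186 loci, 156 of them among the 256, and the co-depletion medians were 46.5% and 49.2%. With isoforms of 1 reference summed there were 193, 146 of them shared, and the medians were 47.9% and 49.1%. Dividing by the library total gave a median locus change of 0.0856 for XRN1 over control and 0.17 for SMG6/XRN1 over XRN1. Without the 21 loci that have an isoform under 1 read, also chosen after seeing the data, the losing isoform was 2-fold lower at 15 loci with SMG6/XRN1 in place of 31 and at 10 in both co-depletions in place of 21, and both changes were found at 5 in place of 15. No value changed sign under any alternative run, and 74 of 94 values moved by less than the limit set for them. No paired analysis was possible because each group has 1 library. Depth limits the low loci most, where a gaining share has an interval half-width of up to 6.34 points.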
